A study of Homo sapiens with 28 samples.

Results

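The genes described here encode proteasome subunits with their regulators (PSMA to PSMG) and proteins of the ubiquitin system, the UBE enzymes, the ubiquitin-specific proteases (USP) and the cullins (CUL). They were matched by name, as every transcript of the authors' deposited table whose symbol began with one of these family prefixes followed by its letter or number. These prefixes were chosen with earlier results of these data known. The choice gave 45 of the 2568 transcripts in that table. RefSeq holds 177 protein-coding genes with such symbols, and most of these had no row in the table analysed here: 7 of 19 PSMA and PSMB genes, 3 of 7 PSMC, 7 of 14 PSMD, 4 of 10 PSME, PSMF and PSMG, 11 of 36 UBE2, 3 of 6 UBE3 and UBE4, 9 of 77 USP and 1 of 8 CUL genes were listed. The RefSeq numbers go by prefix alone and can include genes that only share the prefix, such as PSMC3IP. The rule by which the authors kept a transcript is not given in the sources used here, and the other family members were not analysed. All 45 names were current RefSeq symbols of protein-coding genes.

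The proteasome is the chamber-shaped protease that destroys most short-lived and misfolded proteins of the cell. Its core particle is built of alpha subunits (PSMA) and beta subunits (PSMB), of which PSMB5, PSMB6 and PSMB7 carry the proteolytic sites, and a regulatory particle of ATPases (PSMC) and non-ATPase subunits (PSMD) recognises, unfolds and feeds in the substrate. Substrates are marked with ubiquitin by a cascade of activating, conjugating (UBE2) and ligating enzymes, the last including the HECT ligase UBE3B, the U-box proteins UBE4A and UBE4B and the cullin-based ligases, and USP proteases take ubiquitin off again. Human cells are known to raise proteasome subunit transcription together through the factor NFE2L1 when proteasome activity falls short.

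The study measured RNA turnover in wild-type HEK293T, an established line of human embryonic kidney cells. Labelled cells received 100 µM 4-thiouridine (s4U) for 2 h, which is built into RNA made in that time, and control cells received none. Isolated RNA was treated so that s4U is read as C, with iodoacetamide (called SLAM in the table), with OsO4 and NH3 (TUC) or with NaIO4 and TFEA at pH 5.2 (TimeLapse), and these names are used below. Every chemistry was applied after drop-out handling (DO), the common way of preparing the RNA, and after improved handling (IH), which was meant to lose less labelled RNA. Each combination had 2 labelled libraries and 1 unlabelled library, 18 in all, and the 10 libraries of 5 other chemistries were not analysed here. From these the authors fitted, for each transcript and chemistry, a degradation rate constant under either handling, a log2 change from DO to IH and an adjusted p for that change. The values are used below as deposited. Within 1 handling, a higher constant stands for faster replacement of the RNA. DO and IH differ in how the RNA was prepared. A gene said below to rise therefore had a higher fitted constant under IH, which is not read as faster turnover in the cells. The time unit of the constants is not stated, and the table gives no value per library, so no replicate error can be attached to a constant.

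The labelled libraries held 867400 to 2735236 exonic gene reads each in HISAT-3N alignments. The share of these reads that carried a T-to-C mismatch was 10.4% to 17.4% in the 6 labelled DO libraries and 24.7% to 33.2% in the 6 labelled IH libraries. It was 2.56% to 3.28% in the 3 unlabelled DO libraries and 2.71% to 3.57% in the 3 unlabelled IH libraries. In the labelled DO libraries the share was higher in replicate 1 than in replicate 2 with each chemistry. It was 15.9% and 11.1% with SLAM, 17.4% and 12.5% with TUC, and 15.1% and 10.4% with TimeLapse. Under IH the order of the replicates differed between chemistries. The constants are computed from labelling, so this share moved with every handling comparison below, and its part in the changes of single genes was not tested. The count table gives genes by Ensembl identifier without symbols, so the reads of these 45 genes could not be singled out.

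As a set, the 45 genes lay where the rest of the table lay. In the authors' deposited table their median constant under IH was 0.0818 with SLAM (27 genes), 0.1001 with TUC (40 genes) and 0.103 with TimeLapse (40 genes), and the medians of all other transcripts were 0.0836, 0.0998 and 0.102. Under DO the members had medians of 0.0395, 0.0437 and 0.0464 in the authors' deposited table, against 0.0354, 0.0409 and 0.0430 for all others. The median log2 change from DO to IH was 1.10, 1.24 and 1.20 for the members and 1.14, 1.19 and 1.18 for all other transcripts of the authors' deposited table. Within the set the level under IH differed by family. Constants were low for the proteasome core and ATPase messages, and the highest ones were among the conjugating enzymes and USP messages. The median share of transcripts with a lower IH constant was 27.3% for core rows and 31.4% for ATPase rows. Under DO it was 34.8% and 49.5%, so the ATPase messages lay near the middle of the table there.

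**Figure D1:**
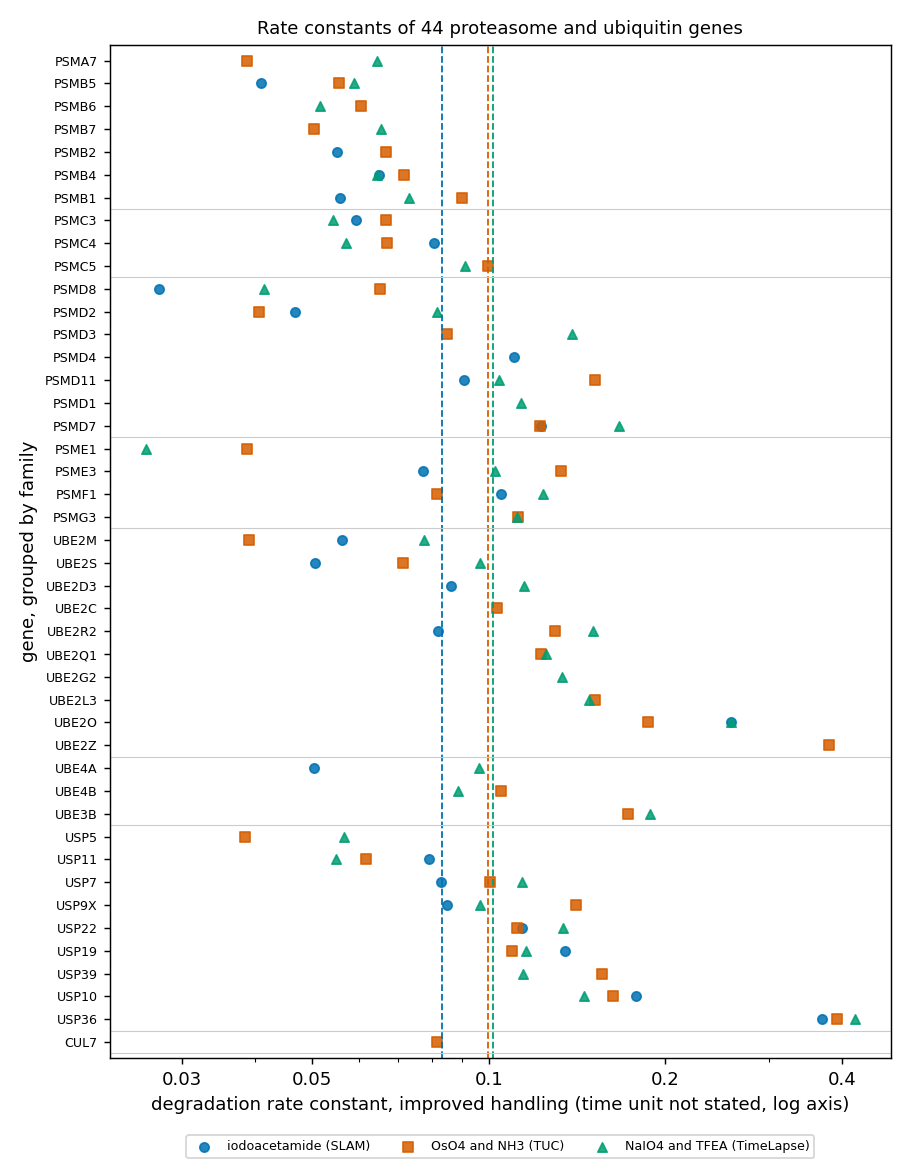
Degradation rate constants under improved handling from the authors' deposited table, on a log axis without a stated time unit, for 44 of the 45 genes grouped by family and ordered by mean within it. Each point is 1 chemistry, and each dashed line is the median of all transcripts for the chemistry of that colour. All points of the PSMA, PSMB and PSMC genes lie left of their line, and USP36 and UBE2Z lie furthest right.

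Under IH the core particle messages had low and similar constants. The 7 listed genes, PSMA7 and 6 PSMB genes, had 17 constants under IH in the authors' deposited table, from 0.0388 to 0.0901, and 17 of 17 lay below the median of all transcripts for the same chemistry. PSMB5, which encodes the chymotrypsin-like catalytic subunit, had IH constants of 0.0410 with SLAM, 0.0557 with TUC and 0.0588 with TimeLapse in the authors' deposited table. These values exceeded the constants of only 19.1%, 22.2% and 23.3% of all transcripts. The catalytic subunits PSMB6 (0.0607 with TUC, 0.0517 with TimeLapse) and PSMB7 (0.0504 and 0.0655 in the same order) were close by in the authors' deposited table. The structural beta subunit PSMB1 had the highest core value, 0.0901 with TUC, beside 0.0558 with SLAM and 0.0732 with TimeLapse in the authors' deposited table. PSMB2, another structural subunit, stood at 0.0552 with SLAM and 0.0667 with TUC.

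Under DO the same core messages were spread more widely, from 0.0119 to 0.0853 in the authors' deposited table. PSMB4, a structural beta subunit, went from 0.0170 to 0.0651 with SLAM, from 0.0251 to 0.0718 with TUC and from 0.0119 to 0.0644 with TimeLapse. Its IH values lay within a narrow band, and its log2 changes of 1.99, 1.59 and 2.54 all passed in the authors' deposited table (the authors' adjusted p = 0.0193, 0.0319 and 0.00248). PSMB6 rose with both chemistries that listed it, by 2.06 and 1.39 on the log2 scale (the authors' deposited adjusted p = 0.00647 and 0.0441). PSMB1 rose by 2.34 with SLAM and 2.20 with TUC, while its log2 change of 1.24 with TimeLapse did not pass in the authors' deposited table (adjusted p = 0.0846). PSMB2 and PSMB5 had log2 changes of 0.87 to 1.44 and passed with no chemistry. PSMB7 was nearly level at 0.13 and 0.17. PSMA7, the alpha subunit, had DO constants of 0.0655 and 0.0853 above its IH constants of 0.0388 and 0.0645, and its log2 changes of -0.70 with TUC and -0.37 with TimeLapse did not pass in the authors' deposited table (adjusted p = 0.343 and 0.537). In all, 7 of the 17 core rows passed the authors' threshold, each higher under IH. Of all transcripts, 50.3% passed with SLAM, 48.6% with TUC and 53.3% with TimeLapse, or 50.7% of the 6071 rows of these chemistries together. Rises under IH were 3033 of those 3081 calls, or 50% of all rows. The difference of the core from these shares was not tested.

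Under IH the ATPase messages resembled the core. The 3 listed genes PSMC3, PSMC4 and PSMC5, which encode ATPases of the ring that unfolds substrates, had IH constants of 0.0543 to 0.0997 in the authors' deposited table, and 8 of 8 lay below the median of all transcripts, the highest only just. PSMC3 stood at 0.0593 with SLAM, 0.0668 with TUC and 0.0543 with TimeLapse, and under DO at 0.0510, 0.0554 and 0.0324, with no log2 change (0.22, 0.29 and 0.78) past the authors' threshold. PSMC4 rose with SLAM, from 0.0212 to 0.0806 (log2 change 1.96, the authors' deposited adjusted p = 0.00831), and its log2 changes of 0.35 and 1.33 with the other chemistries did not pass. PSMC5 rose with TUC, from 0.0250 to 0.0997 (log2 change 2.11, the authors' deposited adjusted p = 0.0133), and its log2 change of 0.72 with TimeLapse did not pass. Together 2 of 8 rows passed for the ATPases, beside 50.7% of all rows, and the difference was not tested.

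Under IH the non-ATPase subunits of the regulatory particle ran from slow messages to ones near or above the median of all transcripts. PSMD8 and PSMD2 lay at the slow end. PSMD2, a large scaffold subunit that docks ubiquitin receptors and shuttle factors, had the lowest DO constant of the 45 genes with SLAM and with TimeLapse: 0.00889 with SLAM, 0.00870 with TUC and 0.00805 with TimeLapse in the authors' deposited table. Its IH constants were 0.0467, 0.0405 and 0.0818, and its log2 changes of 2.43, 2.26 and 3.42 passed each time (the authors' deposited adjusted p = 0.000185, 0.000544 and 8.75e-08). Averaged over the chemistries, the 2.70 of PSMD2 was the largest log2 change of the 23 members listed with all 3.

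PSMD8, a subunit of the regulatory particle lid, had the lowest mean IH constant of those 23 genes. In the authors' deposited table it stood at 0.0274 with SLAM, 0.0653 with TUC and 0.0414 with TimeLapse. Its DO constants were 0.0154, 0.00485 and 0.0172, so the TUC value stood apart on the low side, above only 0.13% of all transcripts with TUC. Its IH constant was highest with TUC too. The log2 change with TUC was the largest of any member row, 3.96 (the authors' deposited adjusted p = 0.000173), while the changes of 0.81 and 1.31 with the other chemistries did not pass (adjusted p = 0.326 and 0.0582 in the authors' deposited table).

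PSMD7, PSMD11, PSMD1 and PSMD4 lay above the median of all transcripts under IH in every chemistry that listed them. PSMD7, the lid partner of the deubiquitinating subunit, was the fastest PSMD message with SLAM and TimeLapse but not with TUC, with IH constants of 0.123, 0.122 and 0.167 in the authors' deposited table (SLAM, TUC, TimeLapse), against 0.0649, 0.0696 and 0.0584 under DO. It passed with TimeLapse alone (log2 change 1.57, the authors' deposited adjusted p = 0.0042, beside 0.95 and 0.87). PSMD11, a lid subunit, stood at 0.0909, 0.152 and 0.104 under IH and at 0.0439, 0.0376 and 0.0454 under DO in the authors' deposited table. Its log2 changes of 2.09 with TUC and 1.26 with TimeLapse passed, and 1.09 with SLAM did not. PSMD3, a lid subunit, went from 0.0495 to 0.0849 with TUC (log2 change 0.79, not passing) and from 0.0689 to 0.139 with TimeLapse (1.01, the authors' deposited adjusted p = 0.0235). PSMD1, a scaffold subunit, was listed with TimeLapse alone and rose from 0.0279 to 0.113 (log2 change 2.18, the authors' deposited adjusted p = 0.0119). The ubiquitin receptor PSMD4 was listed with SLAM alone, at 0.0865 under DO and 0.110 under IH, and its log2 change of 0.35 did not pass. Over the PSMD genes 9 of 16 rows passed, near the 50.7% of all rows, and all were higher under IH, as nearly all calls of the table were.

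For the 4 listed regulators of the particle the log2 changes ran from -0.81 to 1.94. Of their 10 rows 6 passed, all higher under IH, near the 50.7% of all rows. Differences between these genes were not tested. PSME3, an activator found mainly in the nucleus, rose with each chemistry in the authors' deposited table, from 0.0221 to 0.0773 with SLAM, from 0.0424 to 0.133 with TUC and from 0.0350 to 0.103 with TimeLapse (log2 changes 1.84, 1.68 and 1.58). PSMF1, known as a proteasome inhibitor in vitro, likewise rose from 0.0279 to 0.105, from 0.0254 to 0.0815 and from 0.0474 to 0.124 in the same order (log2 changes 1.94, 1.74 and 1.42 in the authors' deposited table, each passing). PSME1, a subunit of the interferon-inducible activator, was among the slowest messages of all, with IH constants of 0.0387 with TUC and 0.0260 with TimeLapse, above only 10.2% and 4.30% of transcripts in the authors' deposited table. Its DO constants were 0.0177 and 0.0142, and its log2 changes of 1.22 and 0.96 did not pass. PSMG3, an assembly chaperone of the core particle, had a DO constant of 0.195 with TimeLapse above its IH constant of 0.112, but 0.0932 and 0.112 with TUC. Its log2 changes of -0.81 and 0.32 had opposite signs, and neither passed in the authors' deposited table (adjusted p = 0.144 and 0.656).

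To show what lies upstream of these genes, the 250 bases before each annotated start were searched for TGACNNNGC on both strands, the core of the antioxidant response element that NFE2L1 can bind. Of the 34 members with an entry in the RefSeq promoter table (GRCh38.p14), 3 (8.82%) held it, PSMC5, PSMD3 and PSME1, against 13.2% of the 27305 genes in that table. A match is a description of the letters and not a bound site, and rates of decay do not bear on it. The windows for PSMD3 (chr17:39980740-39980806, plus strand) and PSME1 (chr14:24136078-24136146, plus strand) are printed as examples, with the match in capitals. It begins 37 bases before the PSMD3 start and 86 bases before the PSME1 start.
PSMD3: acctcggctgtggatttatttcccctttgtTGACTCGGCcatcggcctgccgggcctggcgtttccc
PSME1: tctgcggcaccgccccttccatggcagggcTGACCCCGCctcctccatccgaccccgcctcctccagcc

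**Figure D2:**
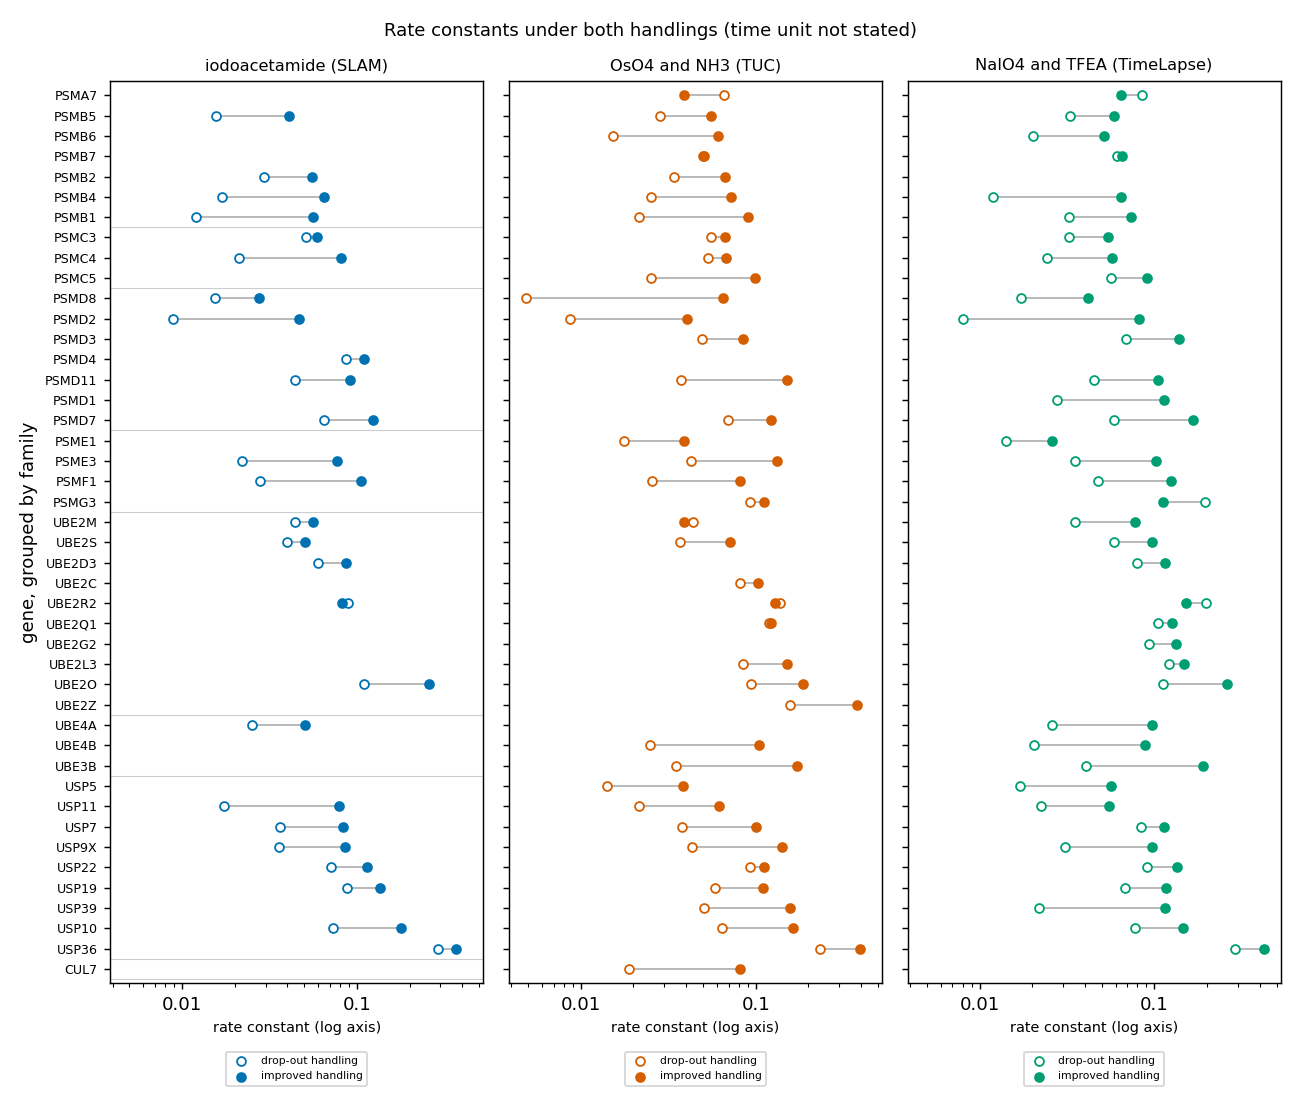
Rate constants of 44 of the 45 genes from the authors' deposited table under drop-out handling (open circles) and improved handling (filled circles), joined by a line, 1 panel per chemistry, on log axes without a stated time unit. The longest lines belong to PSMD8 with TUC (0.00485 to 0.0653) and PSMD2 with TimeLapse (0.00805 to 0.0818), and those of UBE2R2, PSMB7 and UBE2Q1 are short.

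The UBE2 conjugating enzymes included fast messages. Their 11 genes had 24 rows in the authors' deposited table, with a median constant of 0.0828 under DO and 0.127 under IH, and 17 of 24 IH values lay at or above the median of all transcripts. The threshold was passed by 8 of 24 rows, all higher under IH, beside 50.7% of all rows, and the median log2 change was 0.58 beside 1.17 over all rows. Neither difference was tested. UBE2O, a large enzyme that both conjugates and ligates ubiquitin, was the fastest of those listed with all 3 chemistries, at 0.259, 0.187 and 0.259 under IH (SLAM, TUC, TimeLapse) and 0.109, 0.0940 and 0.111 under DO. Its log2 changes of 1.26, 1.01 and 1.23 each passed in the authors' deposited table (adjusted p = 0.00072, 0.0156 and 0.000261). UBE2Z, which takes ubiquitin from the activating enzyme UBA6, was listed with TUC alone, where it rose from 0.156 to 0.380 (log2 change 1.33, the authors' deposited adjusted p = 0.0158), above 96.7% of transcripts.

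For 7 of the 11 conjugating enzymes, UBE2S among them, no log2 change passed the threshold, beside 38.9% of the 2568 transcripts. That difference was not tested. UBE2R2, a partner of cullin ligases, had DO constants of 0.0891, 0.137 and 0.196 and IH constants of 0.0818, 0.130 and 0.151 in the authors' deposited table, lower under IH each time. Its log2 changes of -0.13, -0.07 and -0.38 did not pass, and their mean of -0.19 was the smallest of the 23 members listed with all 3 chemistries. UBE2Q1 stood at 0.119 and 0.123 with TUC and at 0.105 and 0.125 with TimeLapse. UBE2L3, a partner of HECT and RBR ligases, stood at 0.0845 and 0.152 and at 0.122 and 0.148 in the same order, with no log2 change past the threshold in the authors' deposited table. UBE2D3, a conjugating enzyme with many ligase partners, UBE2G2, of the degradation pathway at the endoplasmic reticulum, and UBE2C, a partner of the anaphase-promoting complex, had log2 changes of 0.35 to 0.59 and did not pass. RefSeq names 5 pseudogenes each after UBE2D3 and UBE2C, 4 after PSMD7, 3 after USP10 and 2 each after UBE2L3 and UBE2S. Every other member has fewer. How the authors divided reads between such copies is not given in the sources used here.

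UBE2S and UBE2M were the slow conjugating enzymes. UBE2S, which elongates chains for the anaphase-promoting complex, had IH constants of 0.0505, 0.0715 and 0.0967 and DO constants of 0.0395, 0.0368 and 0.0588 in the authors' deposited table, and log2 changes of 0.34, 0.97 and 0.72 that did not pass. UBE2M, the conjugating enzyme for NEDD8 that activates cullins, stood at 0.0563, 0.0391 and 0.0776 under IH and at 0.0440, 0.0440 and 0.0352 under DO. It passed with TimeLapse (log2 change 1.16, the authors' deposited adjusted p = 0.0421), while its log2 changes were 0.33 with SLAM and -0.18 with TUC.

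The ligases of the UBE3 and UBE4 families rose in most of their rows. UBE3B rose from 0.0349 to 0.173 with TUC and from 0.0407 to 0.189 with TimeLapse in the authors' deposited table (log2 changes 2.40 and 2.28, adjusted p = 0.00103 and 0.000327). UBE4B rose from 0.0248 to 0.105 and from 0.0205 to 0.0887 in the same order (log2 changes 2.19 and 2.21 in the authors' deposited table). UBE4A rose from 0.0259 to 0.0963 with TimeLapse (log2 change 2.03, the authors' deposited adjusted p = 0.0132), and its change of 1.10 with SLAM did not pass. In total 5 of these 6 rows passed, beside 50.7% of all rows, and the difference was not tested. CUL7, the only cullin listed, had a single row, with TUC, and rose from 0.0188 to 0.0816 (log2 change 2.23, the authors' deposited adjusted p = 0.0147).

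**Figure D3:**
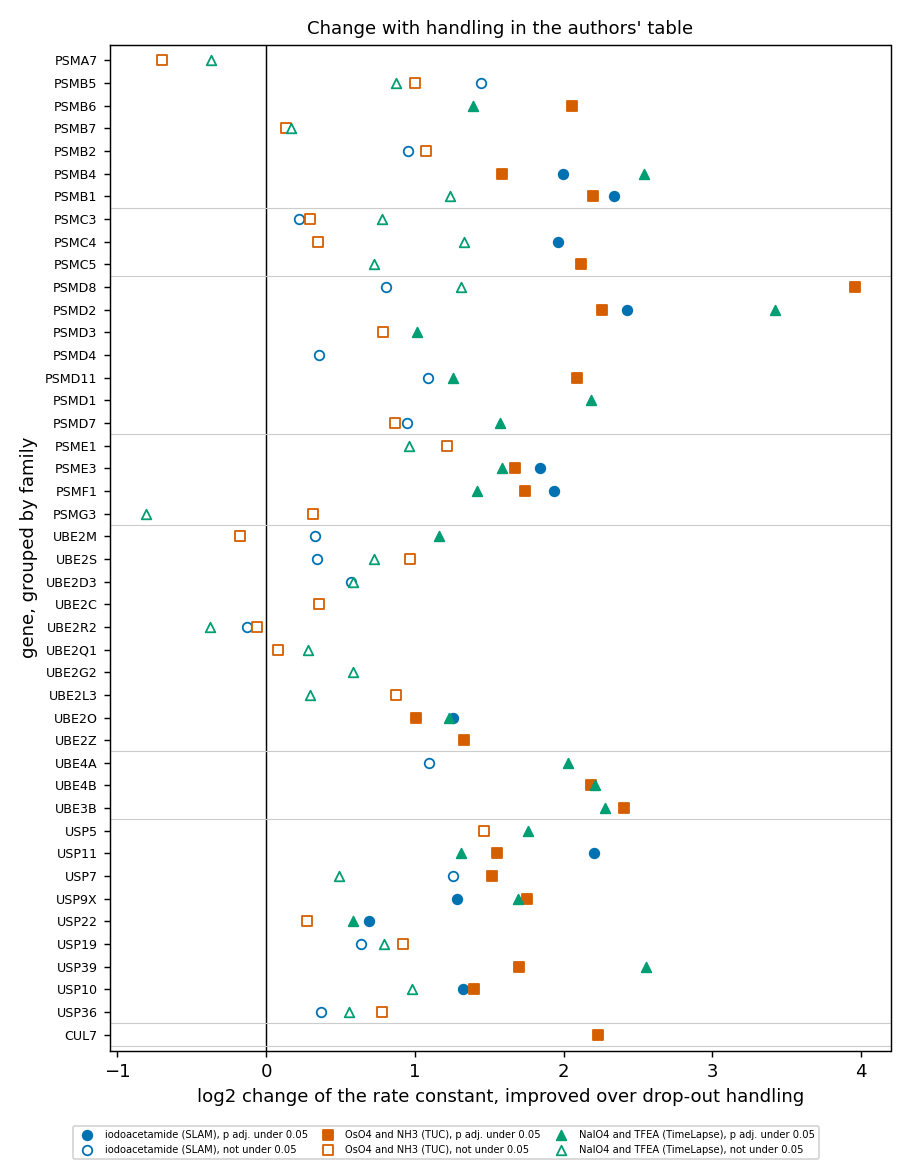
Log2 change of the rate constant from drop-out to improved handling in the authors' deposited table, for 44 of the 45 genes grouped by family, with 1 point per chemistry. Filled points have an adjusted p under 0.05, open points do not, and the line marks no change. PSMD8 reaches 3.96 and PSMD2 3.42, points left of the line belong to PSMA7, PSMG3, UBE2M and UBE2R2, and none of those is filled.

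Deubiquitinating enzymes ran from slow to fast, with IH constants of 0.0384 to 0.421 in the authors' deposited table. USP36, a nucleolar protease, had the highest constants of all members under DO, 0.290 with SLAM, 0.233 with TUC and 0.289 with TimeLapse in the authors' deposited table. Its IH constants were 0.370, 0.392 and 0.421, above 97.4%, 97.2% and 96.9% of all transcripts. The log2 changes of 0.36, 0.78 and 0.56 did not pass (the authors' deposited adjusted p = 0.344, 0.067 and 0.0946). USP10, a partner of the stress granule protein G3BP1, followed at 0.178, 0.163 and 0.145 under IH and 0.0728, 0.0645 and 0.0771 under DO, and passed with SLAM and with TUC (log2 changes 1.32 and 1.40 in the authors' deposited table).

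At the slow end, USP5, which takes apart free ubiquitin chains, stood at 0.0384 with TUC and 0.0566 with TimeLapse under IH, and at 0.0142 and 0.0171 under DO. It passed with TimeLapse (log2 change 1.76, the authors' deposited adjusted p = 0.0119) and not with TUC (1.46, adjusted p = 0.076). USP11 had IH constants of 0.0792, 0.0617 and 0.0549 and DO constants of 0.0173, 0.0214 and 0.0223 in the authors' deposited table. It rose with each chemistry, by 2.20, 1.55 and 1.31 on the log2 scale (the authors' deposited adjusted p = 2.7e-05, 0.00438 and 0.00404).

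The remaining USP genes lay near or above the middle. USP9X, a large protease encoded on the X chromosome, rose with each chemistry, from 0.0359 to 0.0849, from 0.0434 to 0.141 and from 0.0310 to 0.0968 (log2 changes 1.28, 1.75 and 1.69 in the authors' deposited table). USP39, a splicing factor without protease activity, rose from 0.0507 to 0.156 with TUC and from 0.0219 to 0.114 with TimeLapse (log2 changes 1.70 and 2.55 in the authors' deposited table). USP7, which acts on MDM2 and p53, passed narrowly with TUC (log2 change 1.52, the authors' deposited adjusted p = 0.0496), and its changes of 1.26 with SLAM and 0.49 with TimeLapse did not pass. USP22, of the SAGA chromatin complex, had small log2 changes of 0.69, 0.28 and 0.58, of which the first and the last passed (the authors' deposited adjusted p = 0.0324 and 0.0436). USP19, anchored at the endoplasmic reticulum, had log2 changes of 0.64, 0.92 and 0.79 and passed with no chemistry. Over the family 14 of 25 rows passed in the authors' deposited table, each higher under IH, which is near the 50.7% of all rows.

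Counted by chemistry, the members passed the authors' threshold of 0.05 about as often as the table did. With SLAM 12 of 27 members passed, where 50.3% of all transcripts did. With TUC it was 20 of 40 beside 48.6%, and with TimeLapse 20 of 40 beside 53.3%. Each of these member calls was a rise under IH, and 48.9%, 48.1% and 52.6% of all transcripts were called as rises. A log2 change below 0 was listed for 1, 3 and 3 members (3.70%, 7.50% and 7.50%), beside 8.65%, 7.11% and 7.05% of all other transcripts. Of the 23 members listed with all 3 chemistries, 8 rose with each, among them PSMB4, PSMD2, PSME3, PSMF1, UBE2O, USP11 and USP9X. The same held for 36.2% of the 1471 transcripts so listed in the authors' deposited table. Another 6 of the 23 passed with none, beside 27.8%. Among all 45 members, 17 passed with no chemistry that listed them and 28 with at least 1, beside 38.9% and 61.1% of the 2568 transcripts.

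The order of the genes was much alike between chemistries. Across members, Spearman's rho of the IH constants was 0.83 between SLAM and TUC (24 genes), 0.84 between SLAM and TimeLapse (25 genes) and 0.84 between TUC and TimeLapse (36 genes). For all other transcripts of the authors' deposited table it was 0.92, 0.94 and 0.94. For the DO constants the members' rho was 0.92, 0.86 and 0.84, beside 0.90, 0.91 and 0.91 for all other transcripts. For the log2 changes it was 0.66, 0.66 and 0.68, beside 0.71, 0.70 and 0.71. Genes with low DO constants tended to have the larger changes. Between the log2 change with 1 chemistry and the DO constant with another, rho was -0.54 to -0.64 for members. It was -0.41 to -0.50 for all other transcripts. The change contains the DO constant, and DO constants were alike between chemistries, so a negative rho is partly built in. These rho values are descriptions across genes of the same cell line, which are not independent replicates, and the chemistries used separate libraries. The spread between members was narrower under IH: the interquartile range of their log2 constants in the authors' deposited table was 1.71, 1.51 and 1.66 under DO and 0.999, 1.02 and 1.03 under IH (SLAM, TUC, TimeLapse). Those of all other transcripts were 1.84, 1.82 and 1.85 under DO and 1.52, 1.46 and 1.44 under IH.

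**Figure D4:**
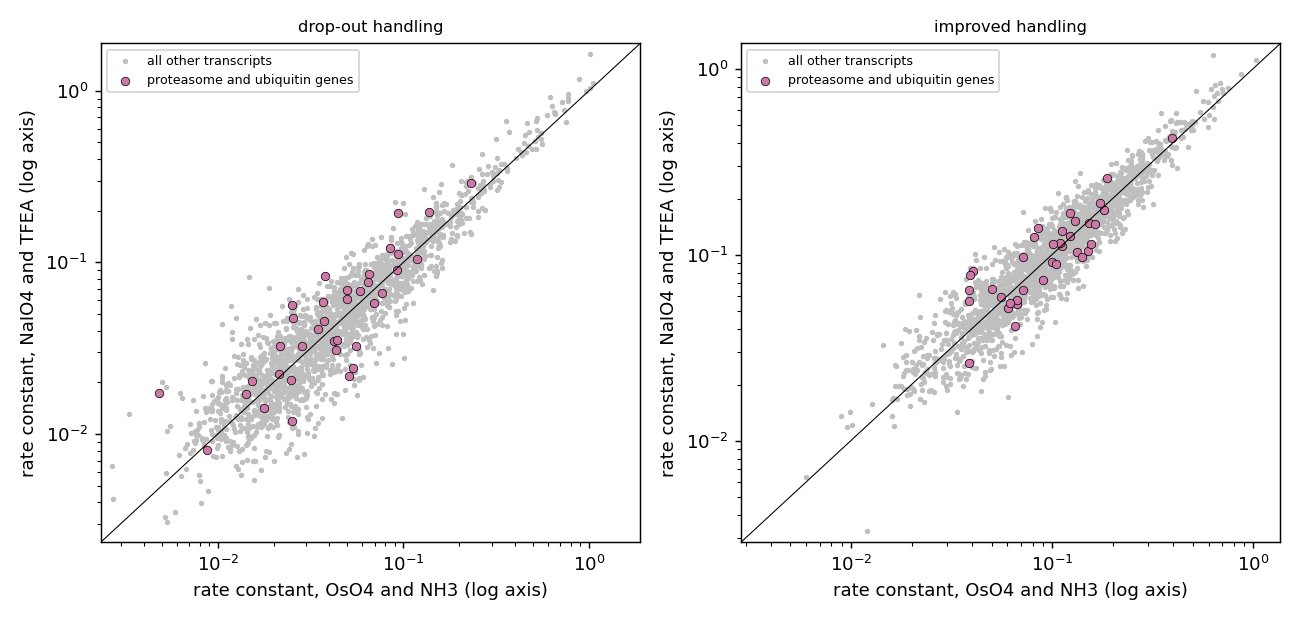
Rate constants with TimeLapse against those with TUC, on log axes without a stated time unit, under drop-out handling (left) and improved handling (right), from the authors' deposited table. Dark-edged points are the 36 members listed with both chemistries, grey points are all other transcripts, and the line marks equal values. The members follow the line in both panels, within the cloud of other transcripts, and USP36 is the member furthest up.

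The rest of the pathway was read from a list of 109 other ubiquitin and proteasome genes, of which 47 were listed. Of these, 20 of 34 rose with SLAM, 23 of 36 with TUC and 27 of 45 with TimeLapse by the authors' deposited adjusted p, beside 48.9%, 48.1% and 52.6% of all transcripts, and the difference was not tested. None fell past the threshold, and 48 of all 6071 rows did. Their median IH constants were 0.0678, 0.0764 and 0.0806 in the authors' deposited table, beside 0.0833, 0.0998 and 0.102 for all transcripts. Their median log2 changes were 1.20, 1.68 and 1.43, beside 1.14, 1.19 and 1.18 for all transcripts. These differences were not tested. Among the slowest were RPS27A (0.0219 to 0.0431 under IH over the chemistries), whose protein is ubiquitin fused to a ribosomal protein, and ELOB (0.0260 to 0.0385), an adaptor of cullin ligases. Among the fastest were NFE2L1 (0.191 to 0.262) and FAF2 (0.220, TimeLapse alone), an adaptor of VCP at the endoplasmic reticulum. Under IH the messages for NFE2L1 and for the core subunits lay far apart, with the lowest NFE2L1 constant of 0.191 above the highest core constant of 0.0901. Regulation of the core genes by NFE2L1 was not measured here.

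The members lay on 17 chromosomes, with 9 on chromosome 17 and at most 5 on any other. These numbers were not compared with the chromosomes of all transcripts. PSMD2 lies at chr3:184299241-184309050, PSMD8 at chr19:38374571-38383824, UBE2O at chr17:76389456-76453152 and USP36 at chr17:78787381-78841439 in RefSeq on GRCh38.p14, the build named in the submitters' processing notes being GRCh38.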

How the data were processed

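RNA was labelled, extracted with Trizol, converted and made into stranded total-RNA libraries, per the labels' protocols. The submitters' processing notes name cutadapt, HISAT2, HISAT, STAR, Picard, HTSeq, DESeq2 and GRCh38, without roles. The authors deposited rate constants of degradation from bakR as scores without a time unit, a log2 fold change and an adjusted p-value, per the labels. For the members, that deposited log2 value differed by at most 0.206 from log2 of the IH over the DO constant. The authors also deposited read counts per library, aligner, gene and T-to-C number, and the other values of that deposited table, T-to-C numbers, were used to count converted reads.

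Members were matched by name and described by counts, medians and ranges beside all other transcripts, with Python 3.11.15 and pandas 2.3.3. The summaries were tested on simulated data. The only test is the authors' own adjusted p, with a threshold of 0.05. The planned edgeR tests of member counts and converted shares were not run, because no table given here pairs the count table's identifiers with symbols. Of 2568 names, 2432 matched a RefSeq symbol. Named were all PSM and CUL genes, the 10 highest and lowest constants and the 5 largest and smallest changes among the members with all 3 chemistries, and members with a negative change or no call. The remaining members are given for completeness. Counts and medians cover all 45 members, but the values of 1 member and of 2 other pathway genes are not reported here, and that member is left out of the plots with gene names. The members, the pathway list and the rules were chosen with earlier results of these data known.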

Additional observations from a re-analysis of the deposited data

Results flagged for a closer look

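The change with handling had opposite signs between chemistries for 2 of the 45 genes, and the difference was not tested for either. Of the 45, 6 were listed with 1 chemistry only and could not differ in sign. The share of such genes among all transcripts was not counted. For PSMG3 the log2 change in the authors' deposited table was 0.32 with TUC and -0.81 with TimeLapse. For UBE2M it was 0.33 with SLAM, -0.18 with TUC and 1.16 with TimeLapse, of which the last alone passed the authors' threshold.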

How the results depend on the processing

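The members' median log2 change stayed between 1.05 and 1.27 over the chemistries and alternatives. The only one that moved by more than the SD of the value over the 3 chemistries, used here as its spread, was SLAM restricted to transcripts listed with all 3 chemistries, at 1.259 (main value 1.098). How the members' level compared with all other transcripts had no firm direction. Under IH the log2 difference of medians was -0.0301 (SLAM), 0.0049 (TUC) and 0.0245 (TimeLapse). With transcripts of all 3 chemistries only, it was 0.0009, 0.1096 and 0.1308, and as a difference of means 0.0793, -0.0492 and -0.0263. Under DO it was 0.1613, 0.0948 and 0.1096, with transcripts of all 3 chemistries only 0.2424, 0.212 and 0.2243, and as a difference of means 0.0939, -0.0547 and 0.0228. The cause of these shifts was not tested.

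Under an adjusted p of 0.01 the members called were 7 with SLAM, 9 with TUC and 11 with TimeLapse (25.9%, 22.5% and 27.5% of members, beside 33.1%, 27.3% and 33.95% of all transcripts). Among the 23 members with all 3 chemistries 13 were called with TUC and 12 with TimeLapse, a drop due to fewer members counted (56.5% and 52.2%, beside 52.9% and 58.5% of all transcripts so listed). The counts at 0.1 and with a log2 change of at least 1 stayed within 1.5 times. Leaving out PSMC3IP changed nothing, since it was not among the members. No paired analysis was possible because the table of rate constants holds no value per library and the reads of these genes could not be singled out. For the same reason the alternatives planned for edgeR (DESeq2, no filter, a higher read minimum, STAR, 2 mismatches, single libraries left out) were not run, and the read depth behind a constant is unknown.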
